A study of Mus musculus with 18 samples.

Results

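Chemokines are small secreted proteins that attract leukocytes along a gradient, and they are sorted into CC, CXC, CX3C and XC families by the spacing of their first cysteines. They act through G protein-coupled receptors on the responding cell, while the atypical receptors (Ackr1 to Ackr4 and Ccrl2) bind chemokines without classical G protein signalling and shape how much ligand is available. In obese adipose tissue the family is best known for Ccl2 and its receptor Ccr2, which bring monocytes from the blood into the fat pad. The mouse chemokine and chemokine receptor genes were taken by symbol (Ccl, Cxcl, Ccr and Cxcr followed by a number, with Cx3cl1, Cx3cr1, Xcl1, Xcr1, Ackr1 to Ackr4, Ccrl2, Pf4 and Ppbp, and without pseudogenes), which gave 65 of the 25124 genes counted, 41 ligands and 24 receptors.

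The genes were measured by poly(A) RNA sequencing in 3 fat depots: inguinal white adipose tissue (iWAT, under the skin), epididymal white adipose tissue (eWAT, in the abdomen) and brown adipose tissue (BAT, the heat-producing depot). All mice were males on a C57BL/6J background, started a high-fat diet (HFD, 60% of calories from fat) at 10 to 14 weeks of age and stayed on it for 12 weeks. The wild-type (WT) mice and the mice lacking caspase-6 in the whole body (C6KO) were littermates, and each genotype gave 3 libraries per depot, 18 in all. All 18 libraries came from HFD-fed mice, the knockout is in all cells rather than in adipocytes or immune cells alone, and the labels do not say which libraries of different depots came from the same mouse.

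The iWAT libraries held 16506034 to 19043523 counts each, the eWAT libraries 16717201 to 19139694 and the shallower BAT libraries 7803108 to 12428683. Casp6, the targeted gene, separated the genotypes in each depot, since no C6KO value reached the lowest WT value. Its log2 fold changes in iWAT, eWAT and BAT were -1.51, -1.85 and -1.50, with adjusted p of 0.0751, 0.0132 and 0.0671 (edgeR's quasi-likelihood test with Benjamini-Hochberg adjustment). BAT carried its defining genes: summed brown adipocyte markers were 5656 to 12690 CPM (counts scaled to a common library total) there and at most 33 CPM elsewhere. Several libraries stood apart from their group. The iWAT library C6KO-3 held 1838 CPM of 17 macrophage markers, against 663.8 and 691.9 CPM in the other two C6KO libraries and 2497 to 2882 CPM in WT. In eWAT, WT-3 and C6KO-3 held 227 and 309 CPM of B cell markers, against 15.13 to 79.59 CPM in the other four libraries, and WT-2 held 63.37 CPM of dendritic cell markers, against 21.08 and 31.25 CPM in WT-1 and WT-3. In BAT, WT-2 held 29030 CPM of skeletal muscle markers, 116.7 CPM of B cell markers and 83.03 CPM of T and NK cell markers, where WT-1 and WT-3 held at most 1278, 5.43 and 15.64 CPM. Muscle markers ranged from 340.4 to 5687 CPM in C6KO BAT.

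Of the 65 genes, 61 had at least 1 count in some library. Ccl20, Ccl21b, Ccl21c and Cxcl15 were at 0 in all 18, and a count of 0 allows up to 3 counts, or 0.384 CPM in the shallowest library. A filter on low counts, set over all genes, left 44 members to test in iWAT. In eWAT it left 48, and 33 in BAT. The same 33 passed in every depot, 10 passed in iWAT and eWAT (among them Ccl3, Ccl4, Ccr3, Ccr7, Cxcr3 and Xcr1), 5 in eWAT alone (Ccr1l1, Ccr4, Ccr6, Ccr9 and Ppbp) and Cxcl11 in iWAT alone. The 16 that passed in no single depot, such as the T cell attractants Ccl1 and Ccl17 and the neutrophil receptors Cxcr1 and Cxcr2, reached at most 33 counts in any library. Of these, Ccl19 and Cxcr2 did pass in the fit of all 18 libraries, used to compare depots. Ccl19, Ccl21a, Ccl21b, Ccl21c and Ccl27b are annotated as several copies, so their counts are uncertain. Many of the genes lie in clusters: 12 ligands, including Ccl2, Ccl7, Ccl9, Ccl6 and Ccl3, lie on chromosome 11, 13 ligands on chromosome 5, of the CXC type apart from Ccl24 and Ccl26, and 15 receptors, including Ccr2, on chromosome 9.

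The first question was which chemokine transcripts each depot of the WT mice held. Compared between genes as CPM per kilobase of transcript (mean ± SD, n = 3), the leading ligands of iWAT were Ccl6 (136.7 ± 24.4) and Ccl9 (78.7 ± 17.6), a pair of rodent CC chemokines that act on Ccr1, followed by Pf4 (60.3 ± 9.78), also called Cxcl4, and the eosinophil attractant Ccl11 (59.8 ± 7.09), which did not differ beyond their spread. In eWAT the same genes led at higher levels, Ccl6 at 344.6 ± 52.7, Ccl9 at 196.2 ± 5.58 and Pf4 at 142.4 ± 21.2 CPM per kilobase. In BAT the highest ligand was Cxcl12 (54.5 ± 15.7), which holds Cxcr4-bearing cells in tissues, with Ccl6 (46.3 ± 9.26), Cxcl14 (43.5 ± 10.6), Pf4 (42.4 ± 15.8) and Ccl11 (40.0 ± 2.91) within its spread. Among receptors, Ackr3 (14.5 ± 2.19), Cxcr4 (14.1 ± 2.18) and Ackr1 (13.9 ± 4.38) were level in iWAT. In eWAT Cxcr4 stood at 34.4 ± 6.98 and Ccr2, the monocyte receptor, at 21.3 ± 10.6. Ackr3, the scavenger of Cxcl12, led in BAT at 55.2 ± 18.1, with Ackr4 next at 11.3 ± 2.38. The plot of WT levels by depot shows these orders.

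**Figure D1:**
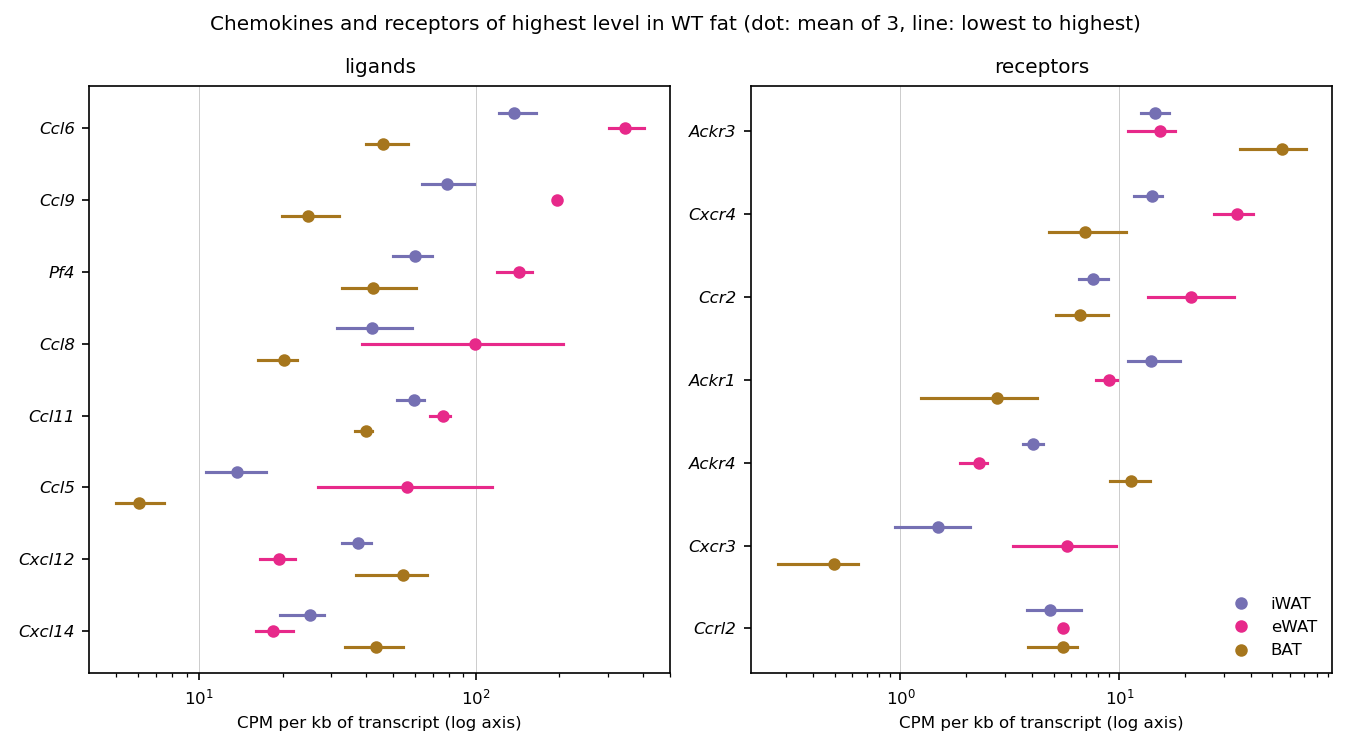
Levels of 8 ligands and 7 receptors in WT iWAT, eWAT and BAT, in CPM per kilobase of transcript on a log axis, with a dot for the mean of 3 libraries and a line from the lowest to the highest. Ccl6 leads the ligands of both white depots, at 136.7 in iWAT and 344.6 in eWAT, and Ackr3 leads the receptors of BAT at 55.2.

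The WT depots were then compared with each other in one fit of all 18 libraries, over 49 members counted on the same transcript in each depot. A gene was called where the adjusted p of edgeR's quasi-likelihood test was below 0.05 and the fold change at least 1.5. Of the 49, 17 were higher in eWAT than in iWAT (34.7%, against 12.9% of all genes tested) and 2 were lower (4.08%, against 12.9%), which makes 38.8% of members called against 25.9% of all genes. The calls differ in their mix between BAT and eWAT too, with 24 lower in BAT (49%, against 23.7% of all genes) and 7 higher (14.3%, against 24.9%), or 63.3% against 48.6% in both directions. In this fit a gene could pass the filter on low counts through white fat alone. Among the 24, Ccl3, Ccl22, Cxcl2, Ccr1l1, Ccr3, Cxcr3, Cxcr6 and Xcr1 did not pass it in BAT by itself. For these members a lower level in BAT was largely fixed by how they entered the test. Between BAT and iWAT 7 were lower (14.3%, against 18.8%) and 9 higher (18.4%, against 20%), and the 32.7% called did not exceed the 38.8% of all genes. A fit of only the 6 libraries compared gave 15 lower (34.1% of the 44 members tested in it, against 20.1% of all genes) and 8 higher (18.2%, against 19.4%) for BAT against iWAT. The 3 comparisons share their WT libraries, and the replicates are separate samples by their labels only, so that p-values measure the spread between these samples.

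Some CC and CXC ligands differed between eWAT and another depot. Ccl3, which acts on Ccr1 and lies at chr11:83647843-83649378 on the minus strand, stood at 13.0, 10.8 and 10.2 CPM in eWAT, at 1.72, 1.96 and 2.07 CPM in iWAT and at 2.19, 0.281 and 1.32 CPM in BAT. All eWAT libraries were above all others, with log2 fold changes of 2.57 over iWAT (SE 0.41, adjusted p = 0.000194, edgeR) and, for BAT against eWAT, of -3.24 (adjusted p = 9.12e-06). Ccl3 did not pass the filter in BAT by itself, so its lower level there was largely fixed by how it entered the test. Ccl5, an attractant of T cells and monocytes, was 3.22 lower on the log2 scale in BAT than in eWAT (log2 fold change -3.22, adjusted p = 0.00108), and its eWAT values of 14.2, 59.9 and 14.7 CPM were spread by WT-2. Ccl4, a close relative of Ccl3, was at 4.76, 5.70 and 4.70 CPM in eWAT and at 0.712, 1.37 and 1.35 CPM in iWAT. It was 2.15 higher on the log2 scale in eWAT (adjusted p = 0.0285), a call lost without any one of the 6 libraries (adjusted p 0.0516 to 0.106). The B cell attractant Cxcl13 was lower in BAT than in eWAT (log2 fold change -3.64, adjusted p = 0.0401), but its eWAT values of 4.65, 6.74 and 44.7 CPM were set apart from the BAT values of 1.31, 2.43 and 0.661 CPM mostly by WT-3. Without eWAT WT-3 the log2 fold change was -1.94 (adjusted p = 0.233). That call was also lost without BAT WT-1, WT-2 or WT-3 (adjusted p 0.0986, 0.0681 and 0.114).

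Some receptors of leukocytes differed as well. Cx3cr1, the fractalkine receptor of monocytes and macrophages, was at 4.87, 12.8 and 8.03 CPM in eWAT and at 2.08, 1.90 and 0.504 CPM in iWAT. All eWAT values were above all iWAT values, and the level was 2.53 higher on the log2 scale in eWAT than in iWAT (adjusted p = 0.00105). Cxcr3, the receptor of T and NK cells for the interferon-induced ligands Cxcl9 and Cxcl10, was at 5.25, 15.5 and 6.97 CPM in eWAT and at 1.02, 0.935 and 0.441 CPM in BAT (log2 fold change -3.54, adjusted p = 0.000276). Ccr3, the eosinophil receptor, was at 7.31, 6.93 and 8.13 CPM in eWAT and at 1.25, 0.892 and 2.35 CPM in iWAT. It was 2.32 higher on the log2 scale in eWAT (adjusted p = 0.0195), which was lost without iWAT WT-1 or WT-2 or eWAT WT-3 (adjusted p 0.073, 0.0776 and 0.0529). Ccr1l1, a Ccr1-like receptor, had 32, 38 and 23 counts in WT eWAT and 0, 0 and 4 counts in WT BAT (log2 fold change -3.36, adjusted p = 0.0259), which was lost without eWAT WT-2, BAT WT-1 or BAT WT-2 (adjusted p 0.0578, 0.0817 and 0.0858). Cxcr3 and Ccr1l1 did not pass the filter in BAT by itself, so their lower level there was largely fixed by how they entered the test. Summed macrophage markers were 9378 to 11710 CPM in WT eWAT, 2497 to 2882 CPM in iWAT and 944.2 to 1206 CPM in BAT, with none of the 17 markers at 0, and their part in these differences was not tested. In bulk tissue, fewer cells of a type and less RNA per cell cannot be told apart.

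A smaller set was highest in BAT. Ccr10, a receptor best known from skin-homing T cells and plasma cells, stood at 6.13, 4.02 and 7.38 CPM in BAT, at 0.712, 0.892 and 0.952 CPM in iWAT and at 0.595, 0.639 and 0.581 CPM in eWAT. Every BAT library was above every white fat library, and the log2 fold changes were 2.76 over iWAT (adjusted p = 7.27e-06) and 3.24 over eWAT (adjusted p = 8.01e-07). Its ligand Ccl27a was at 15.2, 6.64 and 7.05 CPM in BAT, at 3.03, 1.963 and 2.13 CPM in iWAT and at 2.92, 3.49 and 3.70 CPM in eWAT. It was 2.001 higher on the log2 scale than in iWAT and 1.49 higher than in eWAT, both called. Ccl27a was counted on a transcript of RefSeq's non-coding class, so its values may not give the level of the ligand's own mRNA. The membrane-bound ligand Cx3cl1, or fractalkine, was at 48.1, 28.1 and 37.2 CPM in BAT and between 5.99 and 18.3 CPM in the white depots (log2 differences of 2.07 over iWAT and 1.25 over eWAT). Neither gene overlapped between BAT and the white depots. The scavenging receptors Ackr3 (1.92 and 1.84) and Ackr4 (1.47 and 2.30), the latter a sink for Ccl19, Ccl21 and Ccl25, were higher in BAT than in both white depots as log2 differences. Ackr1, the Duffy receptor of red cells and venules, went the other way, at 21.8, 13.6 and 12.6 CPM in iWAT and 3.21, 4.86 and 1.43 CPM in BAT (log2 fold change -2.32, adjusted p = 0.000584). Ccl21a, the lymphatic ligand of Ccr7, was at 0.83, 0.178 and 0 CPM in iWAT, at 5.85, 11.2 and 5.60 CPM in eWAT and at 2.04, 7.57 and 3.19 CPM in BAT, with adjusted p = 0.00359 and 0.00823 against iWAT. Cxcr2, the neutrophil receptor, had 0, 0 and 1 counts in WT iWAT and 7, 9 and 0 counts in WT BAT, and its call for BAT against iWAT was lost without iWAT WT-1 or WT-2 or BAT WT-1 or WT-2 (adjusted p 0.0704, 0.0729, 0.0698 and 0.0652). Cxcr2 passed the filter in no single depot and could not have entered the fit of all libraries through iWAT. Its lower level in iWAT was therefore largely fixed by how it entered the test.

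The second question was how the members differed between C6KO and WT within each depot. In iWAT, 34 of the 44 members tested had a lower estimate in C6KO and 10 a higher one, with a median log2 fold change of -0.47 over members and 0.03 over all genes tested, and edgeR called 0 members. Of all genes, 0.0206% were called lower and 0.00688% higher, or 0.0275% in both directions. At an unadjusted p below 0.05 with a fold change of at least 1.5, 12 members were lower (27.3%, against 6.72% of all genes) and 1 was higher (2.27%, against 2.61%). Values of the genotypes did not overlap for 14 members in the lower direction (31.8%, against 12.2%) and for 3 in the higher (6.82%, against 10.9%). Both lower shares include Ccl3, Ccr3 and Cxcl2, which would not have passed the filter on low counts on their C6KO libraries alone. For these members a lower level in C6KO was favoured by how they entered the test. DESeq2, run as an alternative, called 6 members lower (among them Ccl3, Ccl6, Ccl8, Cxcl2 and Cxcr4) and Ackr4 higher, where it called 3.42% of all genes lower and 1.15% higher. The count rested on C6KO-3: without this library, 13 members were called lower and Ackr4 higher by edgeR, the 13 including Ccl4, Ccl5, Ccl6, Ccl8, Ccl9, Ccl22, Cxcl2, Cxcl16, Pf4, Ccr2, Ccr3 and Cxcr4. That is 28.9% of the 45 members tested there called lower and 2.22% higher, against 6.43% and 2.21% of all genes in the same fit.

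Among the ligands of iWAT, the 5 inflammatory CC ligands Ccl3, Ccl4, Ccl5, Ccl6 and Ccl9 all had lower estimates, with a median log2 fold change of -1.21. Ccl3 was at 1.71, 1.94 and 2.06 CPM in WT and at 0.392, 0.71 and 0.51 CPM in C6KO (log2 fold change -1.81, SE 0.45, adjusted p = 0.161). Ccl9 was at 220.2, 189.4 and 292.3 CPM in WT and at 67.0, 56.8 and 180.2 CPM in C6KO (log2 fold change -1.21, SE 0.46, adjusted p = 0.268). The groups did not overlap for either gene, and C6KO-3 lay nearest to WT for Ccl9. Cxcl2, a neutrophil attractant, had 31, 16 and 22 counts in WT and 1, 1 and 5 counts in C6KO (log2 fold change -3.28, SE 0.73, adjusted p = 0.154). Ccl3 and Cxcl2 entered the test of iWAT through their WT libraries, which favoured a lower level in C6KO. The 4 monocyte ligands (Ccl2, Ccl7, Ccl8 and Ccl12) had a median of -0.21. Ccl2 in iWAT was at 12.1, 8.39 and 12.4 CPM in WT and at 8.96, 7.59 and 11.8 CPM in C6KO, which overlapped (log2 fold change -0.22, 95% interval -0.68 to 0.25).

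Receptors of iWAT had a median log2 fold change of -0.73, with 14 of 17 estimates lower. Cxcr4, the Cxcl12 receptor, stood at 28.2, 26.6 and 20.8 CPM in WT and at 9.97, 9.61 and 16.4 CPM in C6KO (log2 fold change -1.07, SE 0.23, adjusted p = 0.154, and -1.38 with adjusted p = 0.00264 without C6KO-3). All C6KO libraries were below all WT libraries, with C6KO-3 the highest of its group. Ackr4 was among the 3 receptors with a higher estimate, at 8.42, 7.57 and 9.34 CPM in WT and 16.9, 15.1 and 12.2 CPM in C6KO (log2 fold change 0.80, SE 0.19, adjusted p = 0.154). All 17 macrophage markers had lower estimates in C6KO iWAT (median log2 fold change -1.38, 0 called by edgeR, against 0.0275% of all genes). At an unadjusted p below 0.05 with a fold change of at least 1.5, 14 were lower (6.72% of all genes), and DESeq2 called 9 (3.42% of all genes). Summed, the 17 markers were 2497 to 2882 CPM in WT iWAT and 663.8 to 1838 CPM in C6KO. T and NK cell markers were 46.2 to 65.7 CPM in WT and 11.8 to 38.3 CPM in C6KO, and markers of fibroblasts and progenitors 4789 to 4855 and 1769 to 3226 CPM. Adipocyte markers were higher in every C6KO library, at 35660 to 38030 CPM against 26040 to 29750 CPM. The part of these lists in the values of the members was not tested.

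In eWAT 1 of the 48 members tested was called by edgeR, Ccl2, which was higher in C6KO (2.08% of members, against 0.746% of all genes in either direction, 0.537% higher and 0.208% lower). At the same time 31 estimates were lower and 17 higher, with a median log2 fold change of -0.40 over members and -0.01 over all genes. At an unadjusted p below 0.05 with a fold change of at least 1.5, 8 members were lower (16.7%, against 2.79%) and 5 were higher (10.4%, against 4.2%). The 8 included Ccl3, Ccl4, Ccl22, Cxcl14, Cxcl16, Ccr1l1 and Ccr2, and the 5 were all ligands: Ccl2, Ccl7, Cxcl1, Cxcl12 and Ppbp. The genotypes did not overlap for 10 members in the lower direction (20.8%, against 11.2%) and 4 in the higher (8.33%, against 12%). Among the higher members of both rules, Ppbp would not have passed the filter on low counts on its WT libraries alone. Among the lower, Ccr1l1 would not have passed on its C6KO libraries alone. For both genes the direction was favoured by how they entered the test. DESeq2 called 4 members lower (Ccl3, Ccr2, Cxcl14 and Cxcl16), where it called 1.23% of all genes lower, and 3 higher (Ccl2, Ccl7 and Cxcl12), where it called 2.78% higher. Without C6KO-2, edgeR called Ccl2 and Ccl7 higher and Ccl3 and Cxcl14 lower (3.92% of members each way, against 1.68% and 0.616% of all genes in that fit).

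Ccl2, the main attractant of Ccr2-bearing monocytes, lies at chr11:82035577-82037452 on the plus strand of mm10. In eWAT it was at 21.0, 19.0 and 18.3 CPM in WT (355, 347 and 314 counts) and at 30.0, 32.2 and 34.5 CPM in C6KO (500, 599 and 595 counts). The lowest C6KO library was above the highest WT library, and the values of each group were close together. The fold change was 1.66, or 0.73 on the log2 scale (SE 0.12, 95% interval 0.50 to 0.96, adjusted p = 0.0432, edgeR's quasi-likelihood test with Benjamini-Hochberg adjustment), and DESeq2 gave an adjusted p of 0.00021. The direction was the same without any one library (log2 fold changes of 0.68 to 0.80), but the call was lost without WT-1, WT-2, WT-3, C6KO-1 or C6KO-3 (adjusted p 0.13, 0.189, 0.137, 0.0545 and 0.0641) and when WT-3 and C6KO-3 were left out together (0.64, adjusted p = 0.212). With total counts as the scaling it missed the threshold as well (0.69, adjusted p = 0.0501), and the fit of all 18 libraries, from which differences between depots were tested, gave 0.73 without a call (adjusted p = 0.564).

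Ccl7, its neighbour on chromosome 11 (chr11:82045712-82047523, plus strand) and also a Ccr2 ligand, was at 10.3, 9.07 and 8.75 CPM in WT eWAT and at 24.7, 14.1 and 15.7 CPM in C6KO (log2 fold change 0.96, SE 0.22, adjusted p = 0.0655). The groups did not overlap, and without C6KO-2 the adjusted p was 0.039. The other monocyte ligands had lower estimates, Ccl8 with 21.4, 116.2 and 28.5 CPM in WT and 6.49, 23.0 and 16.7 CPM in C6KO. The 3 ligands of Cxcr2 tested in eWAT all had higher estimates. Cxcl1 was at 2.42, 1.15 and 1.75 CPM in WT and at 3.24, 2.84 and 4.35 CPM in C6KO (log2 fold change 0.97, adjusted p = 0.194). Ppbp, a chemokine best known from platelets, had 8, 13 and 1 counts in WT and 15, 33 and 39 counts in C6KO (log2 fold change 1.97, SE 0.68, adjusted p = 0.169). Neither gene overlapped between the genotypes, and neither passed the test. Ppbp entered the test through its C6KO libraries, which favoured a higher level there. Cxcl2 was at 2.95, 1.86 and 2.27 CPM in WT and 2.52, 3.11 and 3.54 CPM in C6KO, which overlapped.

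Cxcl1 and Cxcl2 are neighbours on chromosome 5, and their promoters are shown because they hold the same match to the kappa B motif of NF-κB, which was searched as its degenerate consensus on both strands in the 250 bases before the start of transcription. The sequences are from RefSeq on GRCm38.p6, the same build as mm10, at chr5:90890995-90891244 for Cxcl1 and chr5:90903649-90903898 for Cxcl2, both on the plus strand, with the match in capitals. The capitals hold overlapping matches, 1 on each strand, whose first bases lie 71 and 70 bases before the start in Cxcl1 and 97 and 96 bases before it in Cxcl2.
Cxcl1: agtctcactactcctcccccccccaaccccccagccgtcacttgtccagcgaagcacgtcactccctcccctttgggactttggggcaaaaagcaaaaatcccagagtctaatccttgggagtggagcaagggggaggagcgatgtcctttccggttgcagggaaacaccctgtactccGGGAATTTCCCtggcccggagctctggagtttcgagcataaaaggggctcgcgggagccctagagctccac
Cxcl2: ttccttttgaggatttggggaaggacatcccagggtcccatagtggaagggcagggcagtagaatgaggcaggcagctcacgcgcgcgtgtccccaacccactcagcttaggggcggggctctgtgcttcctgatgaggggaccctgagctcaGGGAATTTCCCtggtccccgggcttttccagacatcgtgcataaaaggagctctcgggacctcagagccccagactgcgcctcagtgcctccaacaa
Of the 65 members 49 had a promoter entry, and 46 had one that starts where the counted transcript does. The motif was in 9 of these 46 (Ccl9, Ccl20, Cxcl1, Cxcl2, Cxcl3, Cxcl10, Ccr3, Ccr6 and Ackr2) and in 3.9% of the 32851 promoters of the table. A match describes the letters only. Ccl2 and Ccl7 had no entry.

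The interferon-induced ligands of eWAT were set by 1 library. Cxcl9 was at 41.9, 339.8 and 35.3 CPM in WT and at 48.7, 35.8 and 42.5 CPM in C6KO, and Cxcl10 at 4.61, 32.5 and 6.24 CPM in WT. WT-2 alone was high, and it was also the highest in Ccl8, Ccl5, Ccr2, Cxcr3 and Xcr1. Cxcl13 and its receptor Cxcr5, which guide B cells into follicles, were high in WT-3 (49.4 and 13.7 CPM) and C6KO-3 (59.8 and 23.8 CPM) and at most 7.48 and 4.92 CPM in the other four eWAT libraries, the same libraries that were high in B cell markers. Ccr6, a receptor of B and T cells, was at 4.02 and 5.28 CPM in this pair and at most 1.15 CPM in the others. The heatmap of all libraries shows these single libraries against their depots.

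**Figure D2:**
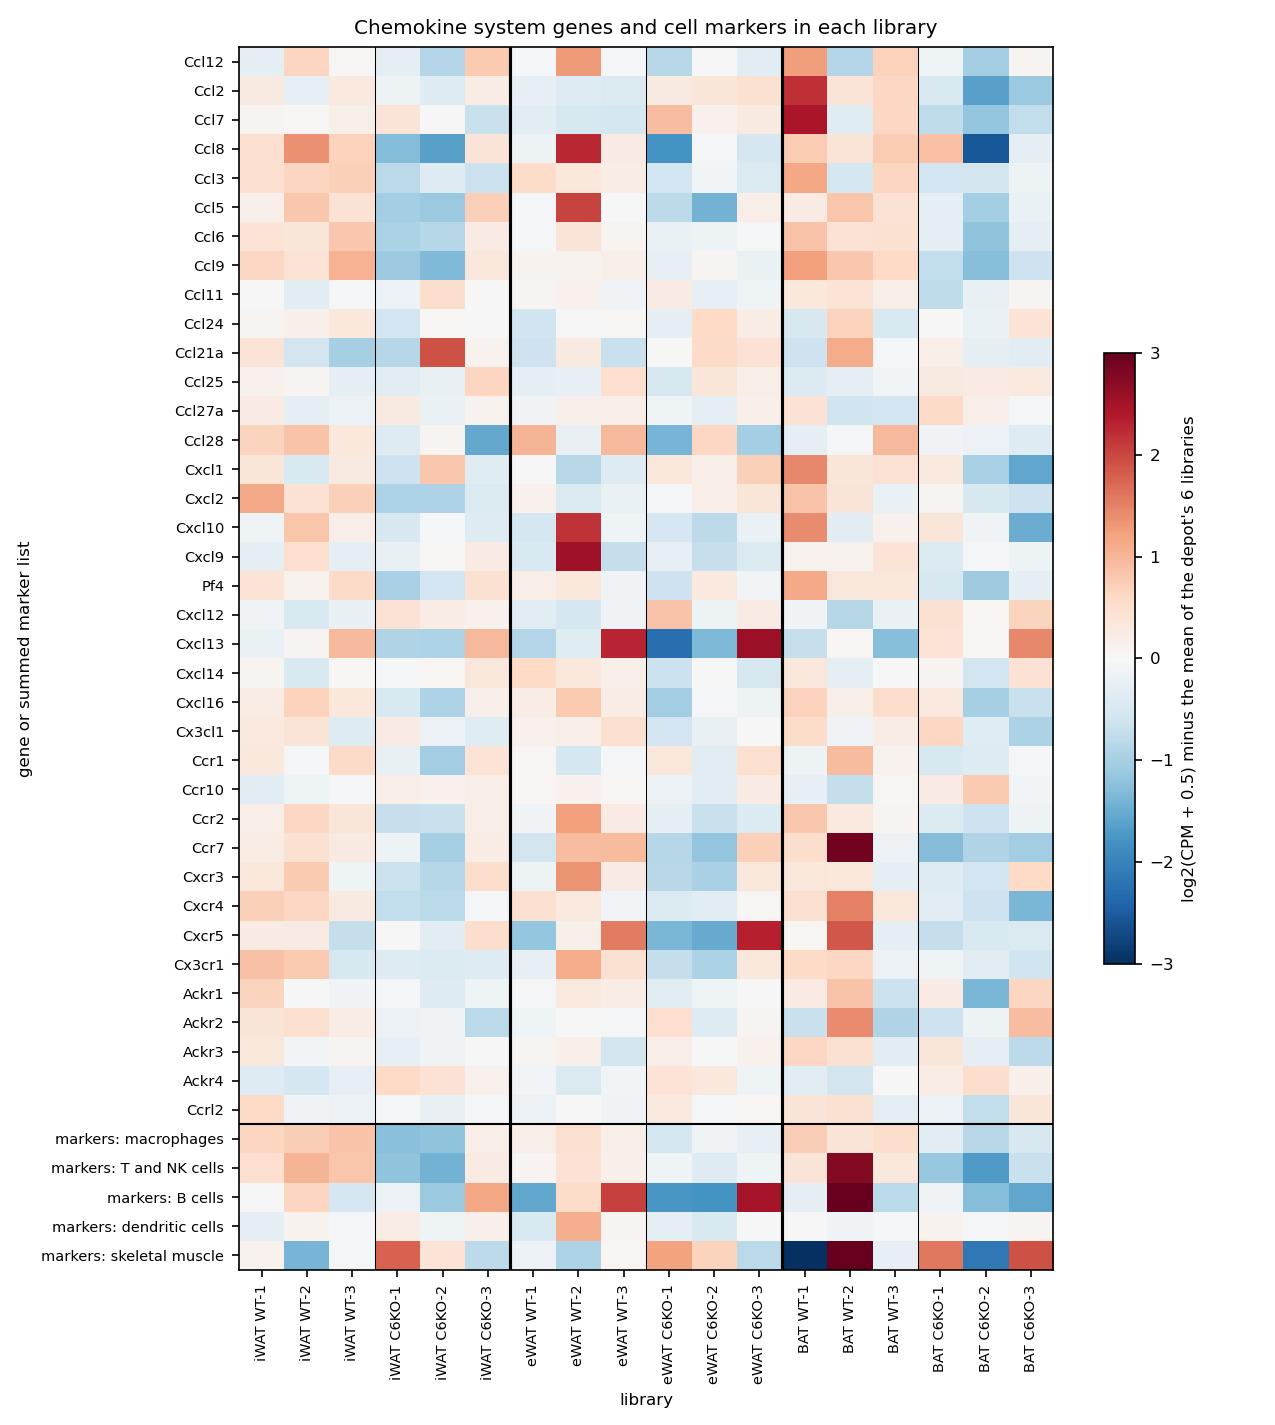
Each of the 18 libraries for 37 members and 5 summed marker lists, as log2(CPM + 0.5) minus the mean of the 6 libraries of the depot, with colours limited to -3 and 3. Single libraries stand out, such as eWAT WT-2 for Cxcl9 (339.8 CPM), eWAT WT-3 and C6KO-3 for Cxcl13 (49.4 and 59.8 CPM) and BAT WT-2 for Ccr7 (8.64 CPM).

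Receptors of eWAT had a median log2 fold change of -0.57, with 14 of 21 estimates lower and 0 called by edgeR (against 0.746% of all genes). At an unadjusted p below 0.05 with a fold change of at least 1.5, 3 were lower (2.79% of all genes). DESeq2 called Ccr2 lower (1.23% of all genes). Ccr2 was at 53.0, 132.9 and 67.1 CPM in WT and at 46.1, 35.5 and 42.4 CPM in C6KO (log2 fold change -1.03, SE 0.36, adjusted p = 0.213). All C6KO values were below all WT values, and WT-2 was the highest library. Among the ligands of these cells, Ccl3 was at 14.2, 11.96 and 11.3 CPM in WT and at 6.25, 9.02 and 6.90 CPM in C6KO (log2 fold change -0.76, SE 0.20, adjusted p = 0.0849). Cxcl14, a chemokine of epithelia and adipose tissue with no settled receptor, was at 43.3, 35.5 and 32.3 CPM in WT and at 18.1, 28.7 and 20.3 CPM in C6KO (log2 fold change -0.73, SE 0.19, adjusted p = 0.0849). Both were called by edgeR without C6KO-2 (adjusted p = 0.0499 and 0.0282). Summed macrophage markers were 9378 to 11710 CPM in WT eWAT and 5834 to 7788 CPM in C6KO, where 16 of 17 estimates were lower and 1 was called (against 0.746% of all genes). Endothelial markers were 603.4 to 691.8 CPM in WT and 820 to 1025 CPM in C6KO. T and NK cell markers were 210.3 to 267.8 CPM in WT and 151.4 to 183 CPM in C6KO, and the part of these lists in the members' values was not tested.

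In BAT 2 of the 33 members tested were called, both lower in C6KO, among them the ligand Ccl9 (6.06% of members, against 1.24% of all genes in either direction, 1.07% lower and 0.169% higher). Lower estimates numbered 26 and higher ones 7, with a median log2 fold change of -0.78 over members and -0.03 over all genes tested. At an unadjusted p below 0.05 with a fold change of at least 1.5, 10 members were lower (30.3%, against 6.27%) and 3 were higher (9.09%, against 2.62%). The genotypes did not overlap for 12 members in the lower direction (36.4%, against 12.1%) and 3 in the higher (9.09%, against 8.07%). Both lower shares include Ccl2, Ccl5 and Ccl7, which would not have passed the filter on low counts on their C6KO libraries alone. For these members a lower level in C6KO was favoured by how they entered the test. DESeq2 called 9 members lower (among them Ccl2, Ccl6, Ccl7, Ccl9, Pf4, Ccr3, Ccr7 and Cxcr4) and Cxcl12 higher, against 2.65% and 1.06% of all genes.

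Ccl9, which acts on Ccr1 and lies at chr11:83572917-83578636 on the minus strand, was at 85.2, 62.7 and 54.4 CPM in WT BAT and at 21.2, 14.6 and 23.2 CPM in C6KO. No C6KO library reached the lowest WT value. Its level in C6KO was 0.291 of that in WT, a log2 fold change of -1.78 (SE 0.23, adjusted p = 0.00999, edgeR), and -1.92 to -1.55 without any one library, the call being lost without C6KO-1, C6KO-2 or C6KO-3 (adjusted p 0.0643, 0.0589 and 0.0514). Its promoter, from RefSeq on GRCm38.p6 at chr11:83578637-83578886 on the minus strand, is shown because Ccl9 was the member with the smallest p of the genotype comparisons. Capitals mark matches to the TATA box letters TATAAA on either strand, whose first bases lie 224, 94 and 92 bases before the start, the last of them overlapping.
Ccl9: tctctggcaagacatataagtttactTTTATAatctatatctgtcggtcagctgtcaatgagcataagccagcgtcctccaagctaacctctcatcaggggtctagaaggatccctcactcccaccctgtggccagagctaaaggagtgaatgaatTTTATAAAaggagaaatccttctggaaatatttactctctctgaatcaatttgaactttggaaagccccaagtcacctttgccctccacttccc
TATAAA was in 14 of 46 members and in 12.4% of all promoters of this length.

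Ccl6, a neighbour of Ccl9 on chromosome 11, and Pf4, on chromosome 5, had lower estimates. Ccl6 (chr11:83587886-83593087, minus strand) was at 72.0, 53.9 and 54.4 CPM in WT BAT and at 32.5, 17.0 and 33.0 CPM in C6KO (log2 fold change -1.13, SE 0.26, adjusted p = 0.087). Pf4, made by platelets and by macrophages, was at 31.3, 17.98 and 17.9 CPM in WT and at 9.93, 6.46 and 11.6 CPM in C6KO (log2 fold change -1.26, SE 0.30, adjusted p = 0.0884). Neither overlapped between the genotypes, and neither passed the test. All 4 monocyte ligands tested in BAT had lower estimates, with a median of -1.90. Ccl2 was at 16.2, 4.23 and 5.10 CPM in WT (125, 48 and 51 counts) and at 2.13, 0.663 and 1.17 CPM in C6KO (18, 8 and 12 counts), a log2 fold change of -2.70 (SE 0.65, 95% interval -3.96 to -1.43, adjusted p = 0.108). Ccl7 was at 13.1, 1.41 and 3.30 CPM in WT and at 0.946, 0.58 and 0.973 CPM in C6KO (log2 fold change -2.81, SE 0.83, adjusted p = 0.191). Ccl2 and Ccl7 entered the test of BAT through their WT libraries. WT-1 was the highest library for both genes, and all C6KO libraries were below all WT libraries. Without WT-1 the log2 fold change of Ccl2 was -1.82 (adjusted p = 0.187), and without WT-2 it was -3.02 (adjusted p = 0.0455), where edgeR called 4 members lower, among them Ccl2, Ccl7 and Ccl9 (11.1%, against 1.05% of all genes). Without WT-1 or WT-3 it called 1 member, Ccl9 (2.94% and 2.7% of members, against 0.517% and 0.553% of all genes lower). Without C6KO-1, C6KO-2 or C6KO-3 it called 0 members, and 0.252%, 0.194% and 0.173% of all genes lower.

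**Figure D3:**
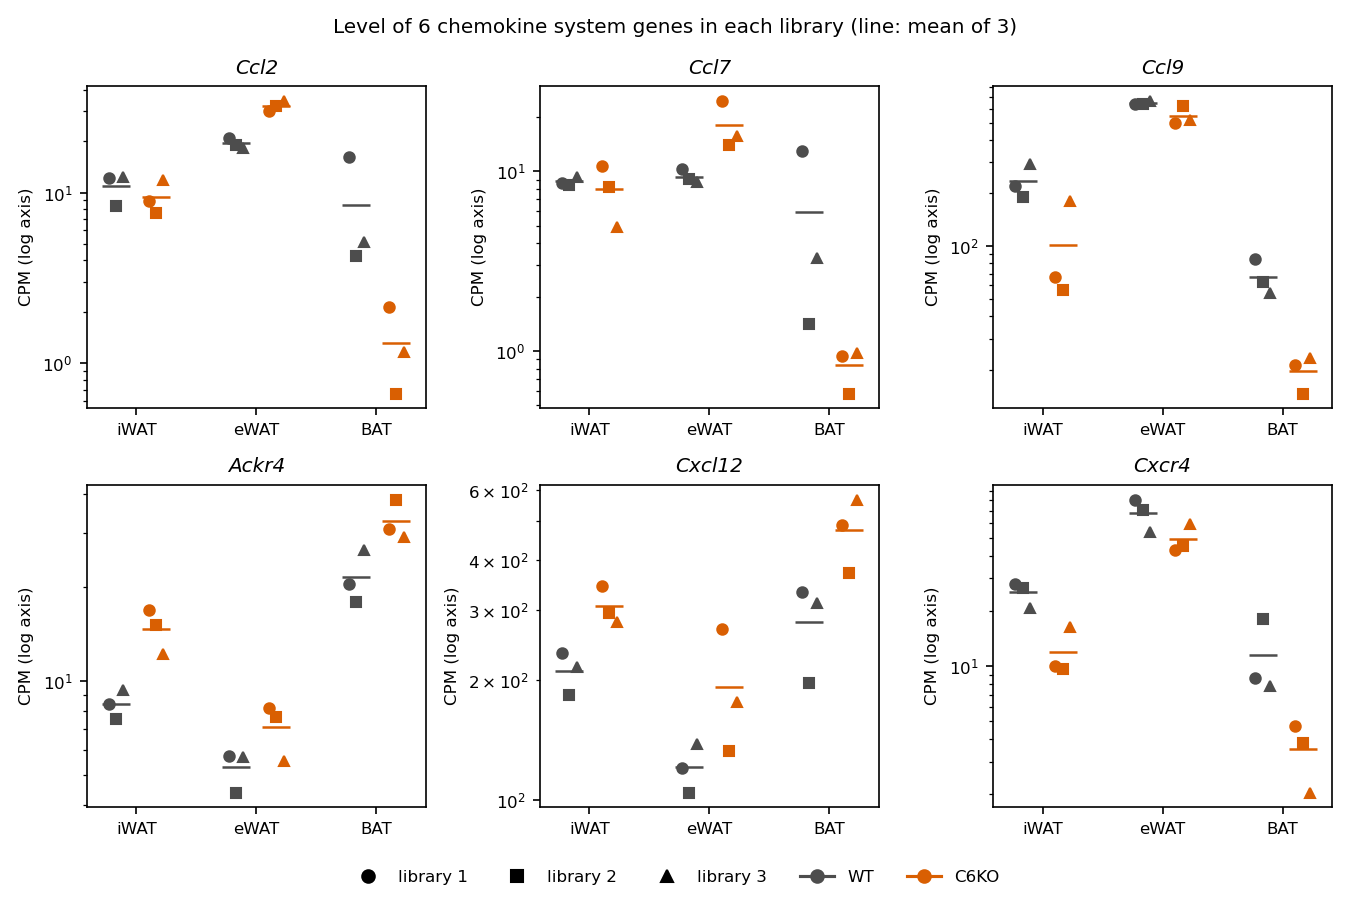
CPM of Ccl2, Ccl7, Ccl9, Ackr4, Cxcl12 and Cxcr4 in every library of iWAT, eWAT and BAT, on log axes, with the marker shape giving the library number and a line for the mean of 3. Ccl2 is above WT in all C6KO libraries of eWAT (30.0 to 34.5 against 18.3 to 21.0 CPM) and below WT in all of BAT (0.663 to 2.13 against 4.23 to 16.2 CPM).

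Among the receptors of BAT, Cxcr4 was at 8.66, 18.2 and 7.80 CPM in WT and at 4.73, 3.81 and 2.04 CPM in C6KO (log2 fold change -1.72, SE 0.42, adjusted p = 0.0991). Ccr2 had a log2 fold change of -0.85 (SE 0.24, adjusted p = 0.145), and none of its values overlapped between the genotypes. Ccr7, the lymph node homing receptor, was at 8.64 CPM in BAT WT-2 and at most 1.29 CPM in the other five BAT libraries. Ackr4 had a higher estimate in C6KO, at 20.6, 17.9 and 26.3 CPM in WT and 30.8, 38.3 and 29.1 CPM in C6KO (log2 fold change 0.60, SE 0.20, adjusted p = 0.212).

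Macrophage markers in BAT summed to 944.2 to 1206 CPM in WT and 404.2 to 577.5 CPM in C6KO, with a median log2 fold change of -1.20 over the list. Of the 17, 6 were called lower (Adgre1, Cd68, Lyz2, Itgax, Trem2 and C1qc), against 1.07% of all genes. Adgre1, the F4/80 antigen, had a log2 fold change of -1.79 (adjusted p = 0.0096). T and NK cell markers were 15.64, 83.03 and 15.2 CPM in WT and 3.31 to 7.20 CPM in C6KO. The part of these markers in the values of Ccl9 and the other members was not tested.

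Cxcl12 and Cxcr4, the ligand and receptor of one pair, had estimates of opposite sign in each depot. Cxcl12 (chr6:117168535-117181368, plus strand) was at 233.8, 183.2 and 215.8 CPM in WT iWAT and at 344.5, 295 and 278.6 CPM in C6KO (log2 fold change 0.54, SE 0.15, adjusted p = 0.167). In eWAT it was at 120.3, 104.2 and 138.2 CPM in WT and at 268.5, 132.9 and 175.7 CPM in C6KO (log2 fold change 0.67, SE 0.25, adjusted p = 0.225). In BAT it was at 332.4, 195.9 and 311.4 CPM in WT and at 487.7, 370.6 and 566.2 CPM in C6KO (log2 fold change 0.76, SE 0.25, adjusted p = 0.206). The genotypes overlapped for Cxcl12 in eWAT and not in iWAT or BAT, and edgeR did not call it in any depot. Cxcr4 had log2 fold changes of -1.07, -0.48 and -1.72 in iWAT, eWAT and BAT, also without a call. Ackr3, the scavenger of Cxcl12, had -0.24, 0.17 and -0.45. The promoter of Cxcl12, from RefSeq on GRCm38.p6 at chr6:117168285-117168534 on the plus strand, is shown because this ligand had a higher estimate in C6KO in all 3 depots, against most members. Capitals mark 5 matches to the GC box GGGCGG on either strand, the letters bound by SP1, whose first bases lie 187, 86, 33, 16 and 11 bases before the start.
Cxcl12: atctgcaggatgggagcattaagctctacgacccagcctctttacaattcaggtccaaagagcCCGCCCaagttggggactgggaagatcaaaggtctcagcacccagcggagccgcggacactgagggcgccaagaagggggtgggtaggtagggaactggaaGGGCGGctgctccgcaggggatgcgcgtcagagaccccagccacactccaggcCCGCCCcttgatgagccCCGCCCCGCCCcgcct
GGGCGG was in 7 of 46 members and in 32.7% of all promoters of this length.

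**Figure D4:**
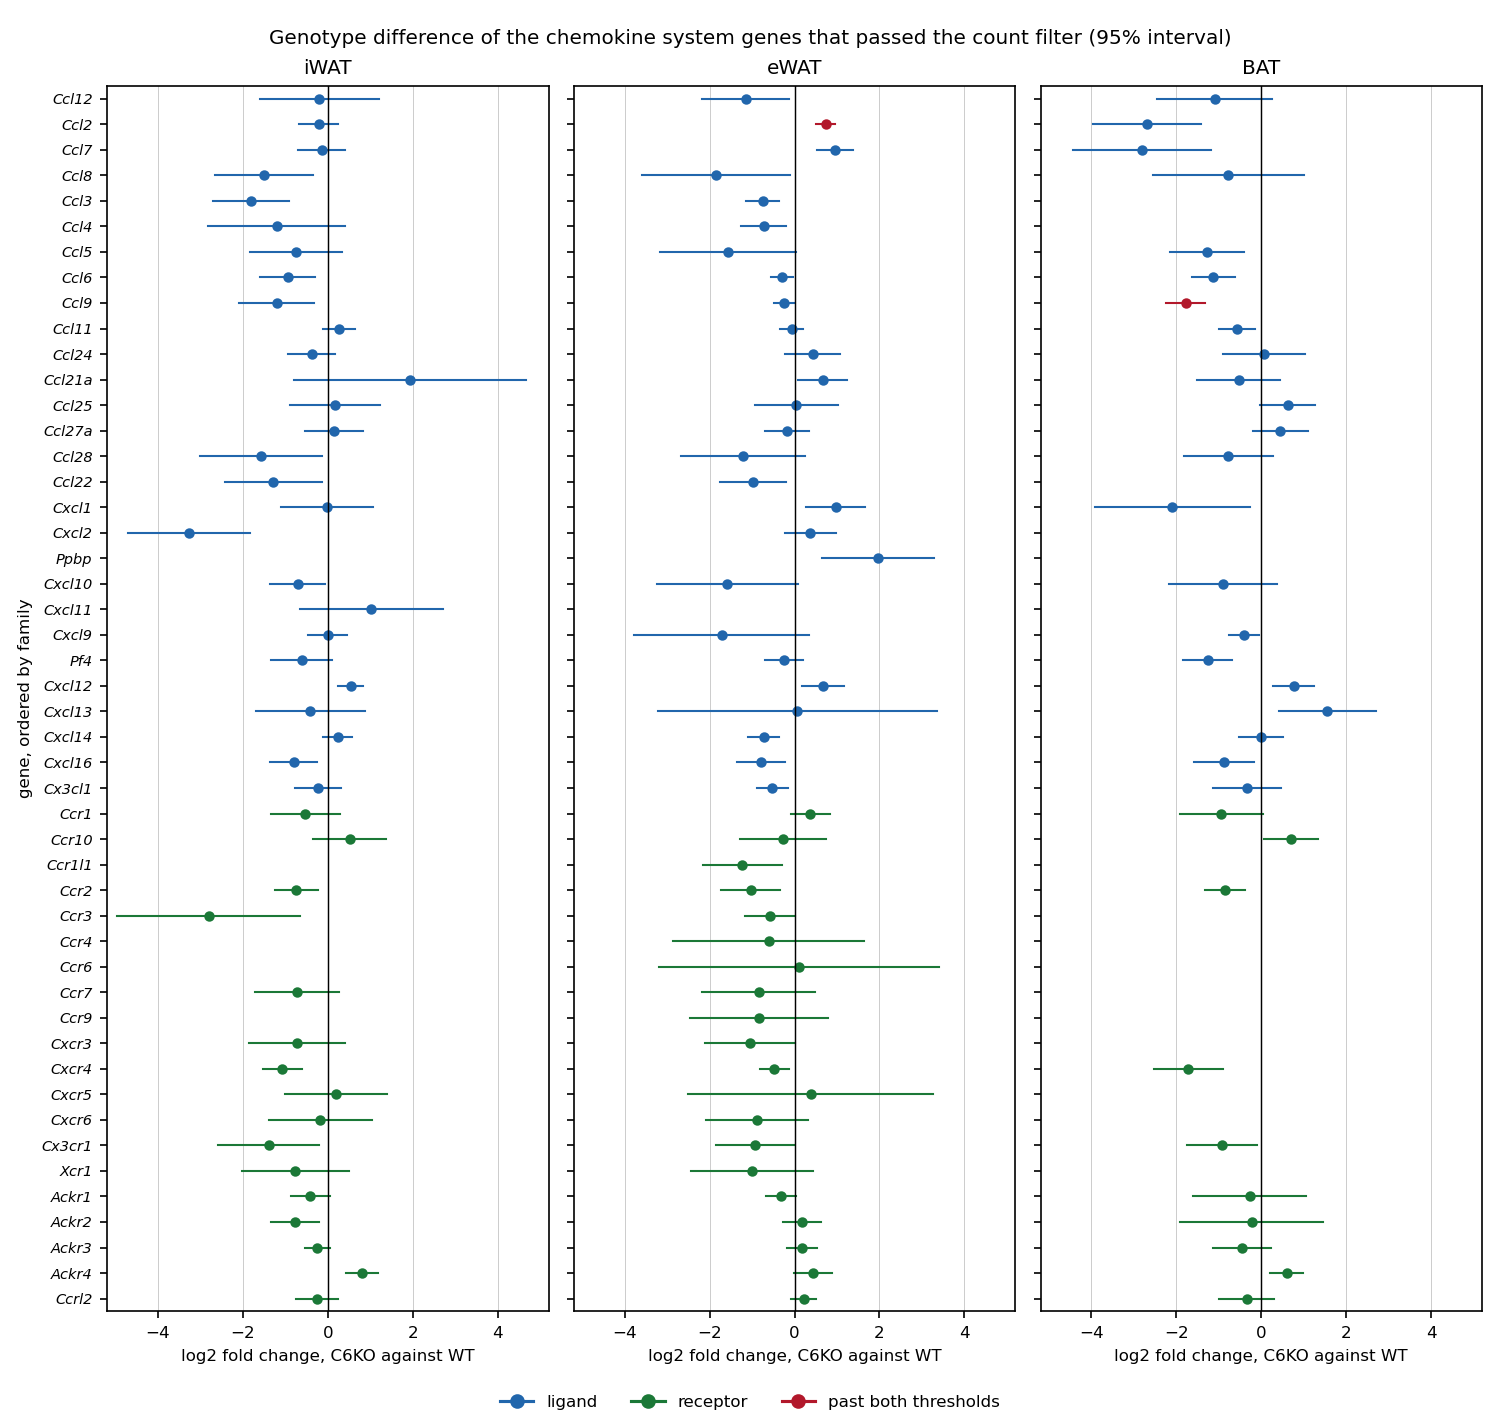
Log2 fold change of C6KO against WT with its 95% interval for 48 of the members that passed the filter on low counts in at least 1 depot, in iWAT, eWAT and BAT, with ligands in blue, receptors in green and calls in red. The calls drawn are Ccl2 in eWAT (0.73) and Ccl9 in BAT (-1.78), and most other points lie below 0.

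Whether the C6KO effect differed between depots was asked last. The difference of effects was tested as an interaction term in the fit of all 18 libraries, over 51 members. Between BAT and eWAT, Ccl2 was called, the only member of the 51 (1.96%, against 0.536% of all genes in either direction and 0.485% in this one). Its C6KO effect was 3.46 lower on the log2 scale in BAT than in eWAT (difference -3.46, SE 0.62, 95% interval -4.68 to -2.25, adjusted p = 0.0186). The call was lost without eWAT WT-2, eWAT WT-3, BAT C6KO-2 or BAT C6KO-3 (adjusted p 0.0636, 0.0622, 0.0665 and 0.0573), with differences from -3.95 to -2.59 over the 12 libraries left out in turn. Ccl7 had a difference of -3.79 (adjusted p = 0.0585). At an unadjusted p below 0.05 with a difference of at least 1.5-fold, 10 members were lower (19.6%, against 6.79% of all genes) and 0 higher (1.88% of all genes), and DESeq2 called Ccl2, Ccl7, Ccl9 and Ccr3 lower (2.11% of all genes). In BAT, Ccr3 rested on 10, 8 and 7 counts in WT and 0 in each C6KO library. Between eWAT and iWAT edgeR called 0 members and 0% of all genes. By the unadjusted rule 1 member was lower there (1.96%, against 1.06%) and 2 were higher (3.92%, against 3.02%), and DESeq2 called Cxcl2 higher (0.0545% of all genes). Between BAT and iWAT edgeR called 0 members (0.183% of all genes), the unadjusted rule gave 4 lower (7.84%, against 4.3%) and 0 higher (2.87% of all genes), and DESeq2 called Ccl2 and Ccl7 lower (0.773% of all genes). For Ccl2 the difference between BAT and iWAT was -2.52 (adjusted p = 0.151). Without iWAT C6KO-3, edgeR called 3 members higher between eWAT and iWAT, Ccl9, Ccr3 and Cxcl2 (5.66%, against 1.41% of all genes). These differences share the libraries of the genotype comparisons.

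Genes that act after the receptors were followed in a list of 52, all of them tested in every depot, from the G protein subunits and adenylyl cyclases to the kinases, Rac activators and cytoskeletal proteins of leukocyte migration. In BAT 4 were called lower and 0 higher, against 1.07% and 0.169% of all genes. The unadjusted rule gave 17 lower and 1 higher, against 6.27% and 2.62%, with a median log2 fold change of -0.33. The 4 were Rgs1, a brake on chemokine receptor signalling in lymphocytes and macrophages (-3.83, adjusted p = 0.00432), Coro1a, the leukocyte actin regulator coronin (-2.02, adjusted p = 0.0328), Adcy7, an adenylyl cyclase (-1.43, adjusted p = 0.0299) and Gng2, a G protein gamma subunit (-1.22, adjusted p = 0.0449). In iWAT 0 of the 52 were called by edgeR (0.0275% of all genes), with 17 lower and 0 higher by the unadjusted rule (6.72% and 2.61% of all genes), 8 lower by DESeq2 (3.42%) and a median of -0.29. In eWAT 0 were called by edgeR (0.746% of all genes), with 4 lower and 2 higher by the unadjusted rule (2.79% and 4.2%), 4 lower and 1 higher by DESeq2 (1.23% and 2.78%) and a median of -0.25.

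Summed over the 41 ligands, WT iWAT held 954.2, 908.6 and 1073 CPM and C6KO iWAT 736.1, 740.8 and 977.1 CPM. In eWAT the sums were 1706, 2378 and 1811 CPM in WT and 1561, 1641 and 1649 CPM in C6KO, and in BAT 823, 540.7 and 672.5 CPM in WT and 769.9, 564 and 842.3 CPM in C6KO. The ligand sums overlapped between the genotypes in iWAT and BAT and not in eWAT. Summed over the 24 receptors, iWAT held 186.6, 175.5 and 167.9 CPM in WT and 109, 99.4 and 142.4 CPM in C6KO. In eWAT the receptor sums were 371, 613 and 404.7 CPM in WT and 275.2, 296.7 and 361.8 CPM in C6KO, and in BAT 257.8, 252.2 and 163.1 CPM in WT and 198.6, 158 and 137.8 CPM in C6KO. The C6KO receptor sums lay wholly below those of WT in iWAT and eWAT and overlapped them in BAT. These sums were not tested and give a member weight by its counts, so that Ccl6, Ccl9 and Cxcl12 set most of the ligand sums.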

How the data were processed

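The 65 members were taken by symbol from the 3 deposited tables of counts, 1 per depot, each with 25124 genes and 6 libraries. Per the labels and the methods of the study, the authors aligned poly(A) RNA reads to mm10 with STAR and counted reads on exons with HOMER, 1 transcript per gene, which gave whole-number counts without normalization. Strandedness, annotation and tool versions are not given in the sources used here, so reads of overlapping genes cannot be told apart. Ccl25, Ccl27a, Cxcl11 and Cxcl16 were counted on transcripts of RefSeq's non-coding class. Ccl27b, Ccr6 and Ccr9 were counted on another transcript in 1 depot than in another and were left out of the comparisons between depots.

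From the counts, edgeR 4.0.16 (R 4.3.3) was run with filterByExpr, TMM scaling and the robust quasi-likelihood F test on all genes, with Benjamini-Hochberg adjustment over all genes tested: C6KO against WT in each depot on its 6 libraries (14533, 14889 and 13595 genes in iWAT, eWAT and BAT), WT depots against each other (14175 genes) and differences of the C6KO effect between depots (15866 genes) in 1 fit of 18 libraries. Genes were called where the adjusted p was under 0.05 and the fold change 1.5 or more. Fold changes are C6KO over WT, intervals are 1.96 SE either side, and CPM values are TMM-scaled, per depot for genotypes and over all 18 libraries for WT depots. Values per kilobase divide CPM by the length in the tables. Chi-square tests of counts between libraries of a group found no library deposited more than once. The tests were checked on simulated data.

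Members and gene lists were chosen with earlier results of these data known. Values in every library are given for Ccl2, for called members of the genotype comparisons, for the 4 other members with the smallest unadjusted p per depot, and for up to 6 called members with the largest fold per WT depot comparison. Levels per kilobase are given for leading ligands and receptors among the 6 highest of each depot. Other members are named for their role or because 1 library set them, after their values were seen. DESeq2 1.42.0, other scalings and filters, a replicate block and leaving out libraries were run as alternatives. One member and 1 marker gene stay in the counts and sums but are not reported here by name. Promoters are from the RefSeq table on GRCm38.p6, and the plots were made in Python 3.11.15 with matplotlib 3.10.9.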

Additional observations from a re-analysis of the deposited data

Results flagged for a closer look

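The C6KO effect on Ccl2 differed between BAT and eWAT by the interaction test, with a difference of log2 fold changes of -3.462 (SE 0.62, adjusted p = 0.0186, edgeR's quasi-likelihood test with Benjamini-Hochberg adjustment). In eWAT all 3 C6KO libraries were above all WT libraries (30.0 to 34.5 against 18.3 to 21.0 CPM), and in BAT all 3 were below (0.663 to 2.13 against 4.23 to 16.2 CPM). The BAT values rest on 8 to 18 counts per C6KO library and on a WT-1 library with 125 counts, where WT-2 and WT-3 had 48 and 51. The interaction call held in 8 of the 12 fits with a single library left out. It was also lost when eWAT WT-3 and C6KO-3 were left out together. Tested within its depot by edgeR, Ccl2 was called in eWAT (adjusted p = 0.0432) and not in BAT (adjusted p = 0.108). The fit of all 18 libraries called it in BAT and not in eWAT.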

How the results depend on the processing

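The WT comparisons between depots stayed within 1.5 times the 19, 16 and 31 members called under every alternative run, though BAT against iWAT went from 7 lower and 9 higher to 15 and 8 in the fit of its 6 libraries. For single members 33 results, some of them for the same gene in several comparisons, were followed over 454 alternatives. Of these values 386 stayed on their side of the threshold, 41 lost a call and 27 gained one, and none changed sign. DESeq2 called 7, 7 and 10 members between genotypes in iWAT, eWAT and BAT, against 0, 1 and 2 by edgeR, and for the effect between depots 1 (eWAT and iWAT), 2 (BAT and iWAT) and 4 (BAT and eWAT), against 0, 0 and 1. DESeq2 also called a larger share of all genes between genotypes, as given with those comparisons above. One fit of all 18 libraries called 3, 0 and 6 between genotypes in iWAT, eWAT and BAT (2.31%, 0.0252% and 3.31% of all genes). In eWAT, total counts as the only scaling called 0 (0.45% of all genes) and no filter on low counts called 2 (1.64%). For Ccl2 in eWAT the log2 fold change was 0.690 with total counts (adjusted p = 0.0501) and 0.726 in the fit of all libraries (adjusted p = 0.564). Chosen after seeing the data, leaving out eWAT WT-3 and C6KO-3 gave 0.639 for Ccl2 and 0 members called in eWAT (0.0134% of all genes). For the effect between BAT and eWAT it gave 0 (0.199%), and leaving out eWAT WT-2 and BAT WT-2 gave 2 (0.205%). The cause of these changes was not tested. Leaving out 1 library at a time gave 0 to 14 members in iWAT, 0 to 4 in eWAT, 0 to 4 in BAT, 0 to 3 for the effect between eWAT and iWAT, 0 between BAT and iWAT and 0 to 2 between BAT and eWAT, and 0.680 to 0.800 for Ccl2 in eWAT. Such fits have fewer samples. Whether same-numbered libraries deviate together was checked on log2(CPM + 1) minus the mean of the group, gene by gene. These deviations had mean correlations of 0.034, 0.096 and -0.357 between same-numbered WT and C6KO libraries in iWAT, eWAT and BAT. For same-numbered libraries of 2 depots in a genotype they ran from -0.016 to 0.178. The highest was for eWAT and iWAT of WT (lowest pair 0.079, mean of other numbers -0.089). Deviations cancel out within a group, so the mean of other numbers largely follows from that of same numbers and is no separate reference. With 3 libraries per group, these correlations cannot decide whether same-numbered libraries came from the same mouse, and no pairing was assumed. With the replicate number as a block, 4 members were called in eWAT (among them Ccl2, Ccl7 and Cxcl16), against 2.78% of all genes. The block gave 3 in BAT (among them Ccl2 and Ccl9, against 0.831%) and 0 in iWAT (0.427%). For the effect between BAT and eWAT the block gave 1 (0.668%). Total counts shifted the median log2 difference of all genes by 0.146, -0.124 and -0.271 for eWAT over iWAT, BAT over iWAT and BAT over eWAT, and scaling by DESeq2 size factors by less than 0.1. Depth limits the low members of BAT, where Ccl2 had 8 to 18 counts per C6KO library.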
